A study of Homo sapiens with 6 samples.

Results

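Nucleolin (NCL) and 8 other nucleolar assembly factors, NPM1, NOLC1, FBL, NOP56, NOP58, DKC1, NOP2 and NOP16, were followed by RNA-seq in 6 libraries. All were made from MDA-MB-231, a triple-negative breast cancer line in long use. The 9 genes were chosen by their names as nucleolar factors with the group differences of these same libraries already known, so their differences between the groups are given as a description, without a p-value. All 9 symbols were found among the 23228 genes of the files, and all 9 were among the 13606 genes that passed the filter on low counts. The cells had received lentivirus with a scrambled shRNA (3 libraries) or with an shRNA against SCUBE3, a secreted signalling protein (3 libraries), and every culture had been kept under puromycin. The labels give neither the shRNA sequence nor the number of hairpins, nor whether a group's 3 libraries stem from separate cultures. The p-values below therefore only set the group difference against the spread among these libraries, and that spread may be technical.

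SCUBE3 RNA itself did not differ in the direction of the labels. It had 96, 91 and 80 reads in the scramble libraries against 99, 107 and 101 in the others, a log2 fold change of 0.03 with a 95% interval from -0.26 to 0.31 (edgeR quasi-likelihood adjusted p = 0.871). The labels mention a western blot of the SCUBE3 protein, whose result is not analysed here. The second group is called the libraries labelled knockdown. Reads in genes ran from 21348509 to 25520901 per library. Of 5 markers fixed for the cell line, all were read in every library, at a summed level of 6700 to 7046 CPM (reads of a gene per 1e6 reads in genes) in scramble and 5614 to 5746 CPM in the other group. VIM (4292 to 2437 CPM), EGFR and AXL were lower in the libraries labelled knockdown, and CD44 (567 to 1064 CPM) and CAV1 (354 to 786 CPM) were higher. Of 5 genes listed as low in this line, ERBB2 (52.5 to 93.9 CPM), GATA3 (5.81 to 15.8 CPM) and CDH1 (0.0450 to 2.05 CPM) were higher, PGR was lower (25, 18 and 23 reads against 0 in each) and ESR1 had at most 4 reads in any library. Of 13 markers of other cell types, 7 were abundant enough to test and 4 of these were higher in the second group: COL1A2 (0.0606 to 7.58 CPM), CD14 (0.230 to 6.31 CPM), PECAM1 (0.957 to 2.64 CPM) and COL1A1 (3.92 to 9.41 CPM). KRT8 and KRT18 were lower and EPCAM did not pass the test. Of all tested genes, 43.4% were higher and 42.5% lower at the same threshold. The 13 summed to 562 to 585 CPM in scramble and 525 to 539 CPM in the other group, most of it from the keratin genes KRT8 and KRT18. KRT5 and KRT14 had 0 reads in all 6 libraries, and PTPRC, CD3E and ALB had at most 4 in any. The part of these markers in the results below was not tested. Entries for reads aligned to several places are not counted for any gene. They made up 34.1% ± 0.104 (SD, n = 3) of the entries in the scramble files and 29.4% ± 0.172 in the others. Whether a read was entered once or once per place is not given. Reads that the counting assigned to no feature, which may still lie inside a gene, made up 14.7% ± 0.278 and 11.1% ± 0.0586. Genes with a read numbered 15333 to 15375 and 15792 to 15895. The groups did not overlap in any of these measures, whose part in the results was not tested.

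The nucleolus is where ribosomal RNA is transcribed, trimmed, chemically modified and joined with ribosomal proteins. NCL and NPM1 are abundant acidic proteins that bind the ribosomal RNA precursor and act as scaffolds and chaperones, and NOLC1 ties small nucleolar ribonucleoproteins to the nucleolus and to Cajal bodies. Small nucleolar RNAs (snoRNAs) guide the modification: those of the box C/D class work with the methyltransferase FBL and its partners NOP56 and NOP58, and those of the box H/ACA class with the pseudouridine synthase DKC1. NOP2 methylates a cytosine of the large-subunit RNA, and NOP16 takes part in building the large subunit. Cancer cells often carry enlarged nucleoli, and NCL and NPM1 are widely used as nucleolar markers.

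Together the 9 genes took 0.745% ± 0.0130 (SD, n = 3) of the reads in genes in scramble, and 0.255% ± 0.00322 where the label is knockdown. The share was 0.756%, 0.731% and 0.747% for scramble 1 to 3 and 0.256%, 0.258% and 0.252% for the other 3 libraries, so the groups were far apart and each was tight. NCL supplied the larger part of it in scramble: without NCL the share was 0.337% ± 0.00273 against 0.160% ± 0.00284. Of the 9 genes, 8 had no overlap in CPM between the groups, all 8 lower in the libraries labelled knockdown, while 85.9% of all tested genes also showed groups that did not overlap in 1 direction or the other. A log2 fold change of -1 or below was reached by 6 of 9, against 13.8% of all tested genes. The median log2 fold change was -1.07, beside 0.01 over all tested genes. In bulk RNA, fewer cells with a transcript and less of it per cell cannot be told apart. These counts rest on the contrast that was known when the genes were chosen and support nothing by themselves.

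**Figure D1:**
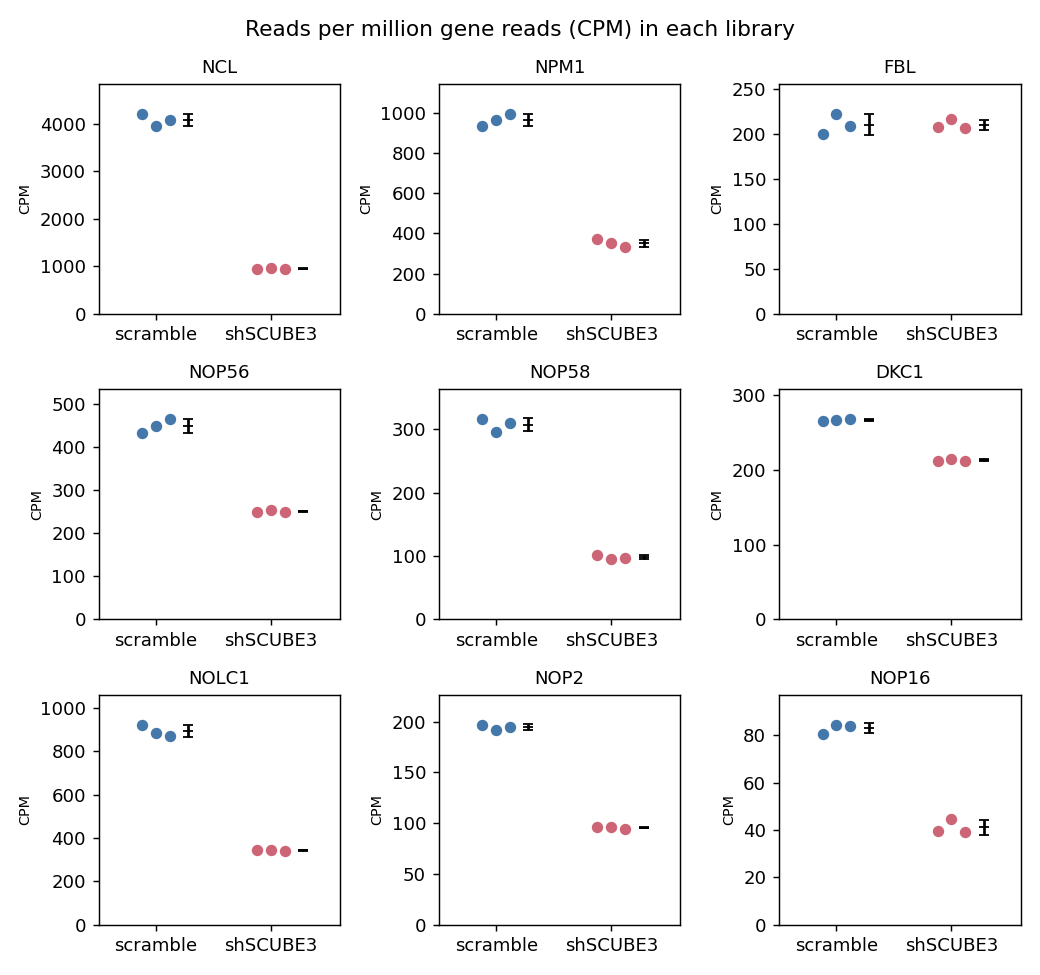
CPM of each of the 9 genes (y axes from 0, 1 panel per gene) in the 3 scramble and the 3 shSCUBE3 libraries, the latter being those labelled knockdown; points are libraries, black marks the group mean with its SD. The groups lie apart in every panel except that of FBL, where the scramble libraries (200 to 222 CPM) enclose the others (206 to 217 CPM).

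Among the scaffolds, NCL had the largest difference of the 9 genes. It was read at 4211, 3949 and 4072 CPM in the scramble libraries and at 942, 962 and 946 CPM in the libraries labelled knockdown. All 3 scramble values lay more than 4 times above any value of the other group, at a log2 fold change of -2.15 ± 0.03 (± here is the standard error, SE), or 4.45 times lower. Only 3.91% of all tested genes had a lower log2 fold change than NCL. NPM1 had 935, 965 and 998 CPM in scramble and 370, 350 and 334 CPM in the other group. Its groups did not overlap either, with a log2 fold change of -1.51 ± 0.03 (SE), and the ratio of NCL to NPM1 reads shifted as well, from 450, 409 and 408 NCL reads per 100 NPM1 reads in scramble to 255, 275 and 284. NOLC1, the snoRNP chaperone also called Nopp140, had 923, 883 and 872 CPM in scramble against 344, 346 and 338. Its difference, -1.43 ± 0.03 (SE) on the log2 scale, was close to that of NPM1.

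NPM1 counts carry a particular limit. Of the 1709 windows of 50 bases (the read length) in its main GENCODE transcript, 44.4% also occur letter for letter in transcripts of 30 other genes, 28 of them pseudogenes, so reads from those stretches can align to several places and go uncounted. The share of entries for such reads differed between the groups, as given above, and its part in the NPM1 difference was not tested. The figure was 0.40% for NCL, 3.66% for NOP56, 0.55% for NOP58, 28.2% for NOP16 and 0 for FBL, DKC1 and NOLC1. NOP16 shares its windows with HIGD2A (14.9%) and ARL10 (13.3%), which overlap it on the opposite strand. Such windows need not mean that a read aligns to several places. NOP2 shares 83.3% of its windows with a single overlapping GENCODE gene on the same strand whose symbol is not among those read in the files.

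The 3 proteins of the box C/D core showed 3 different sizes of change. NOP58 had 316, 296 and 310 CPM in scramble and 101, 95.1 and 97.0 CPM under the knockdown label, which is 3.26 times lower (log2 fold change -1.71 ± 0.04, SE). Its partner NOP56, the other subunit of the pair that clamps the snoRNA, had 432, 447 and 464 CPM against 249, 253 and 249, or -0.89 ± 0.03. FBL, the catalytic subunit, had 200, 222 and 208 CPM against 208, 217 and 206. FBL was thus the exception among the 9: its groups overlapped, its log2 fold change was -0.05 ± 0.04 (SE), and its 95% interval, -0.12 to 0.02, lay wholly above those of NOP56 and NOP58. With library totals in place of TMM scaling the FBL estimate took the other sign, at 0.0007.

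Because the 3 core proteins are used together, their ratios within each library were compared. There were 63.3, 75.0 and 67.3 FBL reads per 100 NOP58 reads in scramble, and 205.5, 227.8 and 212.8 in the libraries labelled knockdown. For FBL against NOP56 the values were 46.3, 49.7 and 44.9 reads per 100 and 83.5, 85.8 and 83.0. NOP56 per 100 NOP58 reads went from 136.8, 150.9 and 150 to 246.1, 265.6 and 256.5. These ratios need no scaling between libraries, and in none of the 3 pairs did the groups overlap. That restates the unlike fold changes of the 3 genes. Among all tested genes, 85.9% had groups that did not overlap in CPM, and other gene pairs were not counted. The genes differ in length, so the ratios compare groups and not the levels of the paired genes.

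**Figure D2:**
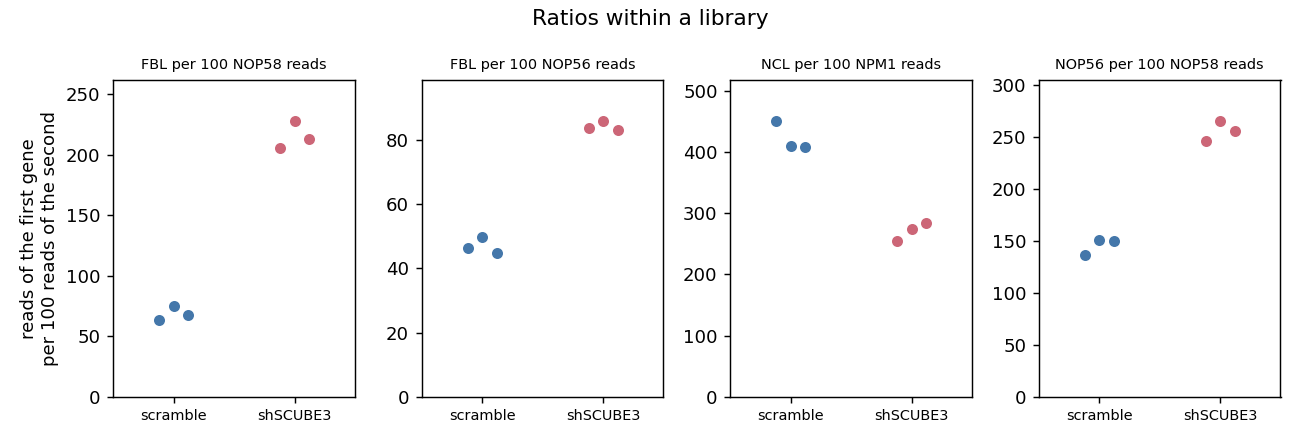
Reads of the first gene per 100 reads of the second within each library (y axes from 0), 3 points per group, with shSCUBE3 marking the libraries labelled knockdown. FBL reads per 100 NOP58 reads were 63.3 to 75.0 in scramble and 205.5 to 227.8 in the other group, and NCL reads per 100 NPM1 reads were 408 to 450 and 255 to 284.

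DKC1, the catalytic subunit of the H/ACA class, differed least among the 8 genes that were lower. It had 266, 267 and 268 CPM in scramble and 213, 214 and 212 CPM in the libraries labelled knockdown. The spread within a group was under 1% of the mean (0.389% and 0.596%), so the groups stayed apart although the log2 fold change was only -0.38 ± 0.03 (SE), or 1.30 times lower. A lower log2 fold change than this was found in 32.9% of all tested genes.

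The 2 factors of large-subunit maturation differed by nearly the same amount. NOP2 had 197, 191 and 195 CPM in scramble and 96.2, 96.3 and 94.6 CPM in the other group (log2 fold change -1.07 ± 0.04, SE). NOP16 had 80.5, 84.5 and 84.0 CPM against 39.8, 44.8 and 39.0 (-1.06 ± 0.05). Their log2 ratio to each other shifted by -0.01 between the groups. NOP16 overlaps the genes HIGD2A and ARL10 on the opposite strand in GENCODE, and how the counting treated strand is not stated in what was available. Reads from the stretches they share may therefore have been left out or misplaced. HIGD2A was higher in the libraries labelled knockdown, with 717, 620 and 608 reads against 1896, 2007 and 1759 (log2 fold change 1.37 ± 0.05, edgeR adjusted p = 1.59e-24), and so was ARL10, with 1, 1 and 0 reads against 59, 50 and 53. Their part in the NOP16 value was not tested.

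**Figure D3:**
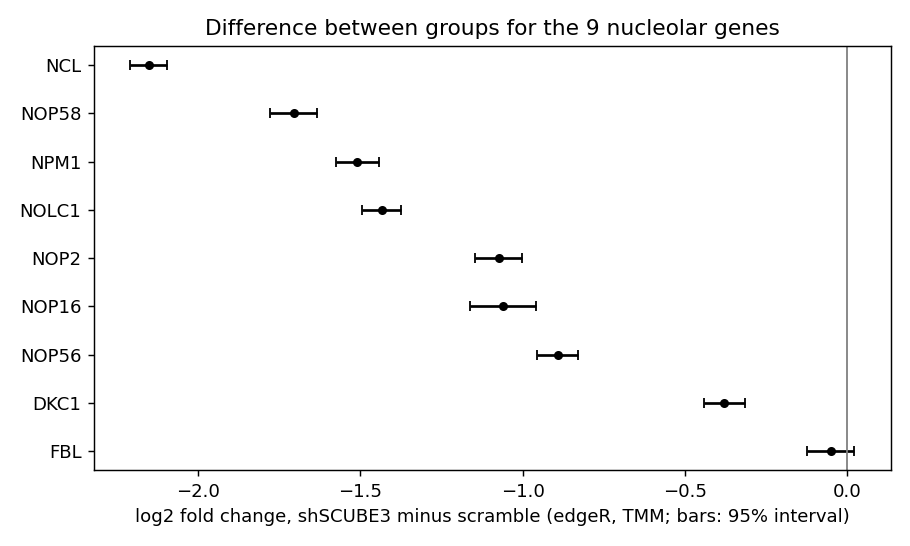
Log2 fold change (x axis, libraries labelled knockdown minus scramble, edgeR with TMM scaling) of the 9 genes, points with 95% intervals, ordered by size. NCL lies lowest at -2.15, FBL reaches 0 with its interval, and NOP2 and NOP16 coincide near -1.07.

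Levels were compared between genes per length, as CPM per kilobase of 1 GENCODE transcript per gene. In scramble the order was NCL (1011 ± 32.5 CPM per kilobase; SD, n = 3), NPM1 (549 ± 17.9), NOLC1 (227 ± 6.81), NOP56 (187 ± 6.69), FBL (181 ± 9.75), NOP58 (150 ± 4.89), DKC1 (104 ± 0.404), NOP16 (66.0 ± 1.75) and NOP2 (64.0 ± 0.932). NOP56 and FBL overlapped in that order, as did NOP16 and NOP2, and the other neighbours did not. In the libraries labelled knockdown NCL had the highest listed level, at 236 ± 2.58 CPM per kilobase, followed by NPM1 at 200 ± 10.4. FBL followed at 181 ± 4.78, ahead of NOP56 (104 ± 0.904), NOLC1 (87.1 ± 1.01), DKC1 (82.6 ± 0.493) and NOP58 (47.8 ± 1.49). NOP16 (32.7 ± 2.50) and NOP2 (31.5 ± 0.302) again overlapped at the end. Among 15082 genes with a transcript length, NCL held rank 19 in scramble and rank 185 in the other group, while FBL held ranks 288 and 281. With 44.4% of its windows shared, NPM1 may be undercounted per length. An undercount of that size would turn the order of NCL and NPM1 in the libraries labelled knockdown. In scramble it would bring NPM1 close to NCL, so their order is uncertain in both groups. How many NPM1 reads went uncounted was not measured.

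**Figure D4:**
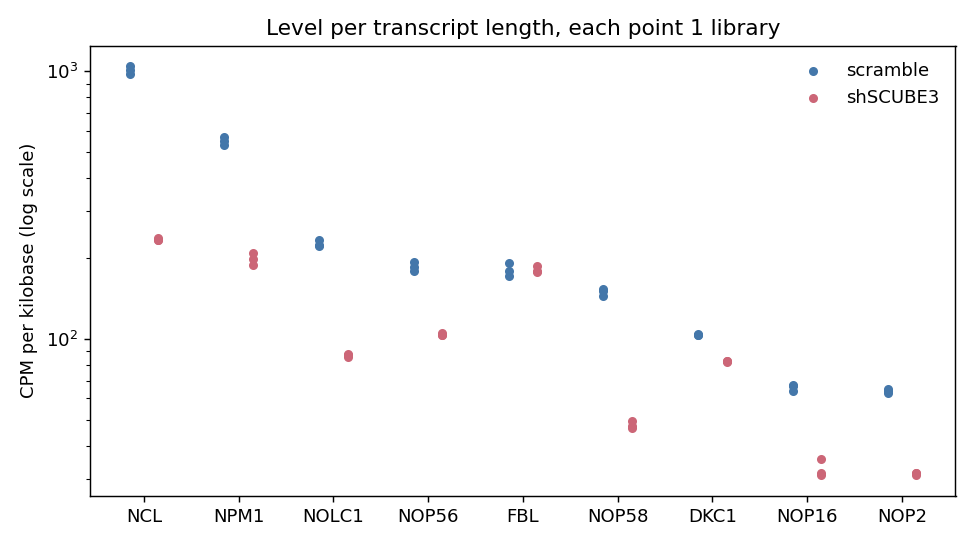
CPM per kilobase of transcript (log axis) for each of the 9 genes, ordered by the scramble level, with 1 point per library and shSCUBE3 marking the libraries labelled knockdown. From NCL to NOP2 the scramble levels span 1011 to 64.0 CPM per kilobase, and the points of FBL are the only ones that coincide between the groups.

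Promoters were looked at for the gene that differed most, NCL, and the gene that did not, FBL. RefSeq windows on GRCh38.p14, from 250 bases before to 50 bases after the annotated start, were given for 7 of the 9 genes, and not for NOP58 and NOLC1. The last 150 bases before the start are shown 5′ to 3′, with the CCAAT box (CCAAT) and the GC box (GGGCGG), on either strand, in capitals. NCL lies at chr2:231464485-231464634 and FBL at chr19:39846380-39846529, both on the minus strand.
NCL: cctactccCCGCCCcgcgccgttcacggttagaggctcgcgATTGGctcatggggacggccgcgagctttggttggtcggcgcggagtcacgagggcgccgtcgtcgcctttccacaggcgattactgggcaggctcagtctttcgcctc
FBL: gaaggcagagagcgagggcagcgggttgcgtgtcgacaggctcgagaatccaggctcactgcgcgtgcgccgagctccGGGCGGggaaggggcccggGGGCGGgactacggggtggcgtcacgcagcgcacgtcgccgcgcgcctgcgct

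In the whole windows, a CCAAT box was found in 4 of 7 genes (NCL, NPM1 in 1 of its 2 windows, NOP56 and FBL) and in 34.6% of all 35116 windows. A GC box was found in 5 of 7 (NCL, FBL, NOP56, DKC1 and NOP16) and in 45.0% of all windows. The E-box CACGTG, the palindrome that MYC binds together with MAX, was found in 2 of 7, NOP2 and FBL, against 7.26% of all windows. TATAAA, a form of the TATA box, was found in 0 of 7, against 11.5% of all windows. Other forms were not searched, such as the TATATAAG that stands before the start in NPM1. CCGGAAG (a site of the ETS factors) was found in 2 of 7, FBL and NOP16, against 10.3%. Both strands were searched for all 5 motifs. Matches of the same motif overlapped each other in DKC1 (GC box) and NOP16 (CCGGAAG), and no match overlapped one of another motif. The E-box lies just after the start in each, and 30 bases around it are shown with the E-box in capitals, from chr12:6568242-6568271 for NOP2 and chr19:39846356-39846385 for FBL, on the minus strand.
NOP2: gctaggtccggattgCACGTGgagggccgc
FBL: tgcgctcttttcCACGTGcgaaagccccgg

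Of these 2 genes with an E-box in the window, NOP2 was 2.11 times lower in the libraries labelled knockdown and FBL overlapped between the groups. NCL, with no E-box in the window, differed most. A match describes letters only and says nothing of binding, and E-boxes outside the windows were not searched. MYC, which is known to drive many genes of ribosome production, had 62.8, 74.2 and 71.0 CPM in scramble and was higher, at 200, 210 and 201 CPM, in the libraries labelled knockdown (log2 fold change 1.51 ± 0.04, edgeR adjusted p = 1.05e-26). Its partner MAX was lower (-0.76 ± 0.04, edgeR adjusted p = 6.45e-20). The part of E-boxes, MYC or MAX in the differences above was not tested.

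The other genes of ribosome assembly were taken from 7 lists of 160 genes in all, of which 158 were in the files and 156 were tested. Of these, 122 were lower in the libraries labelled knockdown, 19 were higher and 15 did not pass an edgeR adjusted p of 0.05, while of all tested genes 42.5% were lower and 43.4% higher. The median log2 fold change of the 156 was -0.58, beside 0.01 for all tested genes. The lists were written from knowledge of the nucleolus, but with results of these same data known, so these counts are a description.

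Box C/D partners were lower in 7 of 9 tested cases and higher in 1 (ZNHIT3, 0.22 ± 0.06), with a median of -1.07. The assembly machine that loads NOP58 and its partners was lower in 6 parts, while ZNHIT3, a further part, was the higher gene just named. RPAP3 went from 151 ± 5.71 to 50.7 ± 1.44 CPM (log2 fold change -1.63 ± 0.04, edgeR adjusted p = 1.68e-30). PIH1D1 fell by 1.39, ZNHIT6 by 1.17, RUVBL2 by 1.07, RUVBL1 by 0.99 and NUFIP1 by 1.45 on the log2 scale. The remaining lower gene of the list, NOPCHAP1 (under the symbol C12orf45), differed less (-0.20 ± 0.08, edgeR adjusted p = 0.0166). SNU13, listed under its older symbol NHP2L1, is the protein that first binds the snoRNA. It had 144, 158 and 152 CPM in scramble and 149, 154 and 148 CPM in the other group, a log2 fold change of -0.06 ± 0.04 (edgeR adjusted p = 0.113, 95% interval -0.14 to 0.01). It overlapped between the groups, as FBL did. Without scramble replicate 1 it passed the threshold (-0.09, edgeR adjusted p = 0.0226). The FBL paralogue FBLL1 had too few reads to test, with 2 reads over the scramble libraries and 0 over the others.

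Among H/ACA partners the test called 6 of 7 lower and 1 higher, and the median was -0.91. The 2 chaperones that bring DKC1 to its RNA were lower: NAF1 fell from 41.4 ± 0.340 to 19.2 ± 0.281 CPM (log2 fold change -1.16 ± 0.06, edgeR adjusted p = 1.12e-20) and SHQ1 from 48.6 ± 2.46 to 26.8 ± 1.69 CPM (-0.91 ± 0.06). PARN, a nuclease that trims RNA tails, was lower too (-1.10 ± 0.05). The core subunits beside DKC1 differed less or in the other direction: NOP10 by -0.23 ± 0.05, GAR1 by -0.14 ± 0.05 (edgeR adjusted p = 0.00796) and NHP2 by 0.50 ± 0.05, from 41.0 ± 1.66 to 60.0 ± 2.82 CPM. The GAR1 call was lost without shSCUBE3 replicate 3 (adjusted p = 0.0694) and with library totals as the scale (adjusted p = 0.0853).

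Nucleolar chaperones and scaffolds were lower in 10 of 12 tested cases and higher in 2, with a median of -0.64. TCOF1, the treacle protein that resembles NOLC1 in its repeats, fell from 583 ± 7.27 to 213 ± 2.32 CPM, a log2 fold change of -1.50 ± 0.03 beside -1.43 for NOLC1. LYAR (-1.42 ± 0.03), NOP53 (-1.19 ± 0.04, under the symbol GLTSCR2) and RRP1B (-0.72 ± 0.03) were lower as well. Of the NPM1 paralogues, NPM3 went against NPM1 and rose from 27.3 ± 2.16 to 45.3 ± 1.71 CPM (0.68 ± 0.06, edgeR adjusted p = 1.59e-13), and NPM2 had too few reads to test. The other higher gene was NOL7 (0.45 ± 0.04).

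Genes of ribosomal RNA modification, with the NSUN paralogues of NOP2, were lower in 12 of 17 cases and higher in 2 (NSUN5, 0.77 ± 0.08, and RRP8, 0.15 ± 0.07), with a median of -0.54. The RRP8 call was near the threshold (edgeR adjusted p = 0.0435). FTSJ3, a large-subunit methyltransferase, fell from 562 ± 7.10 to 145 ± 1.73 CPM (-2.01 ± 0.03, edgeR adjusted p = 4.89e-38), a difference near that of NCL. NAT10 (-0.75 ± 0.04), TRMT112 (-0.76 ± 0.04) and EMG1 (-0.89 ± 0.05) were lower by less.

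The small subunit processome is the particle that cuts and folds the small-subunit RNA. Its list also held factors of later small-subunit maturation, LTV1 and BYSL among them. In this list the test called 40 of 50 genes lower and 7 higher, and the median was -0.60. HEATR1 (-1.58 ± 0.04), WDR3 (-1.55 ± 0.04), LTV1 (-1.33 ± 0.04) and UTP4 (-1.23 ± 0.03, under the symbol CIRH1A) had the smallest adjusted p-values. BYSL, picked out after its values were seen, had the highest log2 fold change of all the tested partner genes (1.18 ± 0.04, from 64.3 ± 2.74 to 151 ± 0.904 CPM). The other higher genes were RRP7A, DDX49, UTP18, NOP9, TBL3 and WDR46, at 0.49 to 0.09. Factors of large subunit assembly, to which NOP2 and NOP16 belong by function, fell in 36 of 45 cases and rose in 3 (PPAN, DDX51 and DDX56, at 0.84, 0.27 and 0.55), around a median of -0.51. The RNA helicase DDX21 fell from 1151 ± 17.6 to 391 ± 9.79 CPM (-1.61 ± 0.03, edgeR adjusted p = 6.15e-36), and NIP7 (-1.63 ± 0.04), BRIX1 (-1.43 ± 0.04) and CEBPZ (-1.29 ± 0.04) were lower. The non-coding host genes of snoRNAs fell in 11 of 16 tested cases and rose in 3 (SNHG8, SNHG9 and SNHG15, at 0.20, 1.13 and 0.44), around a median of -0.48. Lower ones were SNHG4 (-1.60 ± 0.08), ZFAS1 (-1.12 ± 0.04, under ZNFX1-AS1), GAS5 (-0.81 ± 0.05) and SNHG1 (-0.56 ± 0.04).

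**Figure D5:**
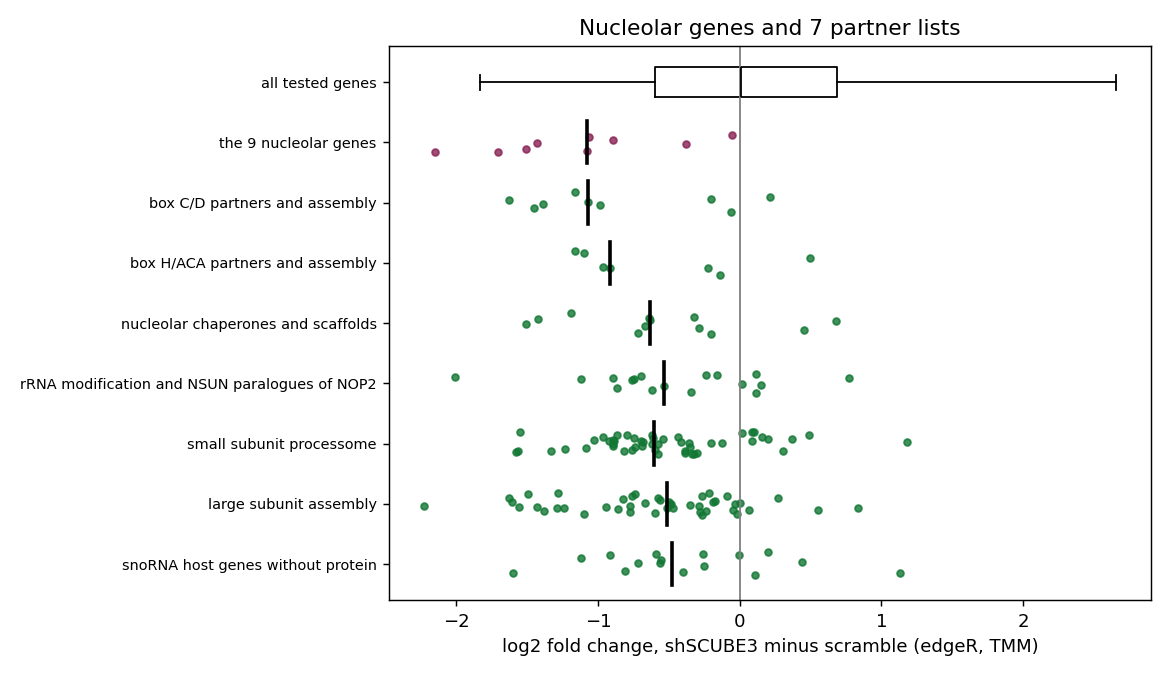
Log2 fold change (x axis, libraries labelled knockdown minus scramble) for all tested genes (box from the first to the last quartile, whiskers at the 5th and 95th percentiles), the 9 nucleolar genes and the 7 partner lists; points are genes, black bars are list medians and the vertical scatter carries no meaning. All 8 list medians lie below 0, from -1.07 to -0.48, and the median of all tested genes is 0.01.

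The 3 genes whose profile over the 6 libraries lay closest to that of NCL (Euclidean distance of log2 CPM centred on each gene's own mean) were SHANK2 at 0.0754, SERPINE2 at 0.0783 and RAP1GAP2 at 0.0813. SHANK2 is a synaptic scaffold gene and SERPINE2 a protease inhibitor gene. With 2 groups of 3 libraries this likeness mainly says that their group difference has the same size, -2.19, -2.17 and -2.18 on the log2 scale.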

How the data were processed

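Polyadenylated RNA was sequenced as single reads of 50 bases from a stranded library kit, per the labels' protocols. What the authors deposited is a whole-number read count for each gene symbol in each library, made with bcl2fastq, TopHat2 2.0.8b and HTSeq on hg19, per the submitters' processing notes. HTSeq's strand and overlap settings: not given in the sources used here. The 5 summary lines were left out of totals and tests.

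Groups follow the titles. CPM are reads per 1e6 reads in genes. Genes kept by filterByExpr were scaled by TMM (factors 0.980 to 1.02) and tested with edgeR 4.0.16 (R 4.3.3; quasi-likelihood F test, robust, two-sided, Benjamini-Hochberg over 13606 genes, threshold 0.05). SE is the fold change over the root of F. Same-group libraries were compared by chi-square (1.68 to 3.47 over its degrees of freedom) and all were kept apart. Members, lists and tests were set with earlier results of these data known. Named are the 9 members, SCUBE3, MYC, direct partners and paralogues, the 3 profiles nearest to NCL and, per list, the 4 smallest adjusted p-values among genes whose higher group averaged 5 CPM or more. MAX, RUVBL2, NUFIP1, NOPCHAP1, HIGD2A, ARL10, the snoRNAs and the higher genes outside this rule were added after their values were seen. Older symbols were matched through the RefSeq and GENCODE name tables. Lengths, shared windows and overlaps come from GENCODE 29 (GRCh38), whose build differs from that of the counts. Alternatives were other scalings, filters, DESeq2 1.42.0, limma-voom (limma 3.58.1), a block on replicate numbers, leaving out single libraries and a threshold of 0.01. No reads carry molecular identifiers.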

Additional observations from a re-analysis of the deposited data

How the results depend on the processing

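The direction of all 9 nucleolar genes was kept in 125 of 126 alternative values, the exception being FBL with library totals (0.0007). NCL ran from -2.17 to -2.10, NPM1 from -1.55 to -1.46, NOP58 from -1.73 to -1.65 and DKC1 from -0.39 to -0.33 on the log2 scale. The median of the 9 ran from -1.13 to -1.07 when 1 library was left out. Their summed share of reads differed by -0.489 percentage points, from -0.496 to -0.484 when 1 library was left out. With all entries of the file as the denominator, which is larger by construction, the share differed by -0.227. The count of genes past the threshold ran from 11065 to 12483. Of the list counts, that of higher genes in ribosomal RNA modification was 2, and became 3 with library totals, 3 with no filter on low counts, 1 with DESeq2, 1 at a threshold of 0.01 and 1 to 2 when 1 library was left out (1 without shSCUBE3 replicate 2). At a threshold of 0.01 the gene lost was RRP8 (edgeR adjusted p = 0.0435). For the other changes the cause was not tested. That of the small subunit processome, 7, ran from 5 at a threshold of 0.01 to 9 with library totals. SCUBE3 ran from -0.042 to 0.088 when 1 library was left out, with the lowest value without scramble replicate 3. For 37 single genes with a test, 514 of 518 alternative values kept direction and call. Most of these genes were named for small adjusted p-values in this same contrast, so that count was largely fixed beforehand. All changes were in GAR1, SNU13 and SCUBE3. No scaling moved the median of all tested genes beyond 0.06.

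The replicate numbers are shared between the groups. Deviations of same-numbered libraries from their group means had correlations of 0.0078, 0.0051 and -0.0035. Those of differently numbered libraries ran from -0.0232 to 0.018. These values cannot tell whether same-numbered libraries were prepared together, and the labels do not say. With the replicate block the median of the 9 was -1.07 and the number of genes past the threshold 11706.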

Other observations

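GENCODE places 14 snoRNA genes inside members, on the same strand: 5 in NOP56, 4 in NOP58, 3 in NCL and 2 in DKC1. Of these, 12 had at least 1 read and 4, all within NOP56, passed the filter on low counts. The host NOP56 had a log2 fold change of -0.89, and its snoRNAs did not all move with it. SNORD57 had 63, 60 and 82 reads in scramble and 24, 21 and 22 in the libraries labelled knockdown (log2 fold change -1.78 ± 0.22, SE; edgeR adjusted p = 1.71e-09). SNORD56 had 48, 31 and 33 reads against 18, 10 and 9 (-1.76 ± 0.30), and SNORA51 had 18, 24 and 11 against 6, 7 and 5 (-1.71 ± 0.41, edgeR adjusted p = 2.60e-04). SNORD110 went the other way, with 18, 42 and 34 reads against 64, 61 and 67 (0.85 ± 0.23, edgeR adjusted p = 9.51e-04). The libraries were made from polyadenylated RNA, which mature snoRNAs are not, so these few reads need not follow the level of the mature snoRNA. The difference between SNORD110 and its neighbours was not tested.

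Within NOP58, SNORD11B had 7, 3 and 7 reads in scramble and 0, 1 and 0 in the other group, too few to test. Within DKC1, SNORA56 had 1, 8 and 2 reads against 9, 14 and 13, also too few to test.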
